A study of Mus musculus with 10 samples.

Results

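Osteocytes isolated from the femurs of myeloma-bearing mice (MM) were compared with osteocytes of control mice (No MM) in the libraries that held few immunoglobulin reads. Of the 10 libraries of the series, 8 had under 5% of their counted reads on genes whose names begin with Igh, Igk or Igl, and these 8 were kept. They comprised 5 MM libraries (6 to 10) and 3 No MM libraries (1, 2 and 5). The libraries were thus selected on a measured value, so immunoglobulin and plasma cell genes are described only. They remain in the counts over all tested genes, and no conclusion is drawn from a call on them. The kept library closest to the limit was No MM 2, with 3.98% of reads on these genes, and the nearest library left out was No MM 3, with 26.8%.

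All mice were labelled as male C57BL/6 mice, 8 weeks old. MM mice carried Vk12598, a transplantable murine myeloma line, which had been injected into the femur, and No MM mice received no myeloma cells. Osteocytes, the cells that lie within mineralised bone, were released from pieces of femur by repeated collagenase and EDTA digestion after the marrow had been removed, and their total RNA was sequenced. The isolation had no sort for a single cell type, and the MM group rested on 1 myeloma line.

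Osteocytes sense load and govern both other bone cell lineages. They make RANKL (Tnfsf11), which drives osteoclast formation, and sclerostin (Sost), which restrains bone-forming osteoblasts through the Wnt pathway. Multiple myeloma is a cancer of plasma cells, the antibody-secreting cells of the marrow, and is known for lytic bone lesions. The class II transactivator (Ciita) is the master regulator of MHC class II genes and is itself induced by interferon gamma. Plasma cells hold very large amounts of immunoglobulin RNA.

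Among the kept libraries the share was 2.67%, 3.98% and 0.647% in No MM 1, 2 and 5, and 1.11%, 1.99%, 1.06%, 1.74% and 1.42% in MM 6 to 10. The control group held both the lowest and the highest share of the 8, and the MM libraries lay between them. The 95% Wilson interval of each share, which covers counting error only, was narrower than the gaps between libraries, for example 3.972% to 3.985% in No MM 2. The plot of shares by library shows the distance between the kept and the omitted libraries.

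**Figure D1:**
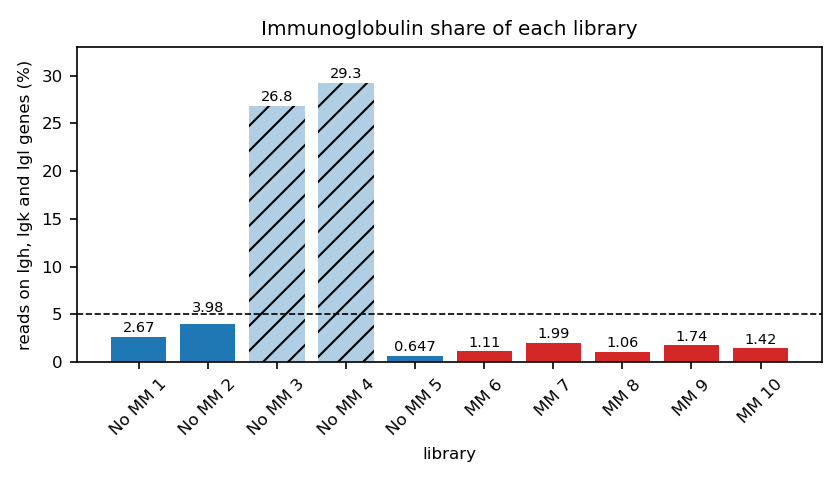
Share of counted reads on genes named Igh, Igk or Igl (y axis, percent) in each of the 10 libraries (x axis), No MM in blue and MM in red. The dashed line is the 5% limit, and the 2 hatched bars, at 26.8% and 29.3%, are the No MM libraries left out.

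The kept libraries held 31099174 to 37818143 counted reads, so that 3 reads corresponded to 0.0745 to 0.126 CPM, the depth-scaled count, here with TMM factors. No pair of libraries was a duplicate: in the closest pair, counts of well-covered genes differed by 9.74 times the variance expected from counting alone. The labels give males, but reads of 4 Y-linked genes were nearly absent (0 to 1.27 CPM in sum) in 5 of the 8 kept libraries, No MM 1 and 2 and MM 6, 7 and 8. These had 36.2 to 718 CPM of Xist, the RNA of the inactive X chromosome. No MM 5, MM 9 and MM 10 had 142 to 176 CPM of the Y-linked genes and at most 6.20 CPM of Xist. These Y-linked and Xist values, and all values of No MM 3 and 4 below, use the TMM factors of all 10 libraries. That scale runs lower, for example 176 against 190 CPM for the Y-linked genes in MM 10. Both kinds of library occurred in both groups, and differences within each kind are given below for some genes only. No MM 5 was the only control with Y-linked reads, so ratios within that kind have no control spread. No MM 1 also stood apart, with a TMM factor of 0.766 against 0.948 to 1.07 in the other 7.

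The osteocyte label was checked against 17 osteocyte markers, all of which were detected. Their summed level was 1936, 3713 and 2903 CPM in No MM 1, 2 and 5 and 2874, 2650, 1188, 2077 and 1485 CPM in MM 6 to 10. Dstn, Cd44 and Capg held 393, 250 and 312 CPM of it in No MM 1 and 322, 240 and 131 CPM in MM 8. Whether these genes mark osteocytes alone was not tested. Osteoblast genes summed to 36060 to 62340 CPM in No MM and 19550 to 69660 CPM in MM. Osteoclast genes summed to 7221 to 17950 and 4246 to 10810 CPM. Neutrophil genes, led by the calprotectin subunits S100a8 and S100a9, summed to 32790 to 42470 CPM in No MM and 15260 to 40000 CPM in MM, and muscle genes to 1414 to 11230 and 1179 to 9996 CPM. The digests therefore held RNA of other cells in both groups. In such bulk samples, fewer cells of a type and less RNA per cell cannot be told apart.

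After low-count genes were removed, 16600 of 22548 genes were tested. No gene was called at an adjusted p under 0.05 by edgeR's quasi-likelihood test with Benjamini-Hochberg adjustment, neither higher in MM (0%) nor lower (0%), and the smallest adjusted p was 0.644. At an unadjusted p under 0.05, 417 genes (2.51%) were higher and 560 (3.37%) were lower in MM. These sets included 19 and 14 immunoglobulin genes. In 409 genes (2.46%) every MM library lay above every No MM library, and in 254 genes (1.53%) every MM library lay below. DESeq2 called 2 genes higher and 2 lower, of which 3 were immunoglobulin genes, whose reads chose the libraries, and the other was BC106179. Below, list members named beside a count were named after their values were seen. The lists were chosen with earlier results of these data known, so their shares beside those of all genes are no independent test.

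With all 10 libraries, 617 genes (3.81%) were higher and 1664 (10.3%) were lower at an unadjusted p under 0.05, and none passed the adjusted threshold (smallest adjusted p 0.315). The biological coefficient of variation, the spread between mice relative to the mean, was 0.460 with 10 libraries and 0.373 with 8. The 2 fits share all 8 kept libraries. Of the genes tested in both, 308 were lower in both fits, which is 18.5% of those lower with 10 libraries and 55.9% of those lower with 8. For genes higher in MM, the 130 in both fits were 21.1% and 31.9% of the respective sets. Removing the immunoglobulin-rich pair thus left fewer genes below the unadjusted threshold, and most genes lower in the full set were not among those that remained. It also left only 3 controls, which lowers the power of the test, and these effects cannot be told apart.

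The study picked Ciita, Clec9a, a Riken gene (taken here as C530050E15Rik) and Adgrg5 as higher in MM from the sequencing of these same mice. Their direction and p-values here are therefore no independent check, and Adgrg5 is not described. The class II transactivator Ciita (ENSMUSG00000022504, chromosome 16, 10488178 to 10527564, plus strand) kept its direction. Its level was 16.04, 22.2 and 20.5 CPM in No MM 1, 2 and 5 and 33.9, 41.3, 37.3, 28.8 and 24.0 CPM in MM 6 to 10. The groups did not overlap, and the lowest MM library was 1.75 CPM above the highest control. The means were 19.6 ± 3.199 (SD, n = 3) and 33.1 ± 6.82 CPM (SD, n = 5), with a log2 fold change of 0.75 ± 0.21 (SE). The unadjusted p of edgeR's quasi-likelihood test was 0.0062 and the adjusted p 0.644. The log2 ratio of the group means was 0.97 among libraries without Y-linked reads and 0.36 among those with them, where No MM 5 was the only control. In the 10-library fit the log2 fold change was 1.08, with 9.76 and 9.26 CPM in the immunoglobulin-rich No MM 3 and 4.

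Clec9a, a receptor for dead-cell debris on cross-presenting dendritic cells, was at 1.43, 4.79 and 3.98 CPM in No MM and 5.73, 9.19, 8.24, 9.78 and 7.96 CPM in MM 6 to 10. All MM libraries lay above all No MM libraries. The log2 fold change was 1.26 ± 0.39 (SE), with an edgeR unadjusted p of 0.0102 and an adjusted p of 0.644. It was 1.28 in the 10-library fit. The log2 ratio of the means was 1.31 among libraries without Y-linked reads and 1.16 among those with them. In the deposited annotation Clec9a overlaps Clec1b, a gene of the megakaryocyte and platelet list, on the same strand. Clec1b was at 27.5 to 66.9 CPM in No MM and 21.0 to 98.2 CPM in MM, so some Clec9a reads may be shared with it. Of the wider set of 20 dendritic cell markers, 14 had positive values and 2 (Clec9a and Itgax) were higher at an unadjusted p under 0.05, against 2.51% of all genes. Clec9a counts among the 2 although the study had already picked it as higher in these libraries. The median log2 fold change of the 20 was 0.14 against -0.02 over all tested genes. Itgax was at 16.8 to 21.3 CPM in No MM and at 78.9 CPM in MM 8 but 21.2 to 29.8 CPM in the other MM libraries, and MM 6 lay below No MM 5. Xcr1, the chemokine receptor that marks the same dendritic subset, was at 0.628 to 1.18 CPM in No MM and 0.506 to 4.02 CPM in MM, and the groups overlapped.

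The long noncoding RNA C530050E15Rik (chromosome 13, 24631918 to 24638567, minus strand) was at 0.168, 0.546 and 0.628 CPM in No MM and at 0.751, 1.21, 1.29, 1.52 and 1.49 CPM in MM 6 to 10. The groups were apart by 0.123 CPM. Its log2 fold change was 1.45 ± 0.47 (SE), with an edgeR unadjusted p of 0.0121 and an adjusted p of 0.644. It was 1.65 with 10 libraries, and the log2 ratio was 1.605 without and 1.26 with Y-linked reads. In the deposited annotation this gene overlaps Fam65b on the other strand, and the strand setting of the counting was not given in the sources used here.

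The MHC class II list, fixed for its relation to Ciita, was split. Of 13 class II genes tested, 7 had positive and 6 negative values, 3 (Ciita, H2-Eb2 and H2-Ob, 23.1%) were higher at an unadjusted p under 0.05, against 2.51% of all genes, and none was lower, against 3.37%. Ciita counts among the 3 although the study had already picked it as higher in these libraries. Cd74, the invariant chain that escorts class II molecules, was at 1998, 1446 and 721 CPM in No MM and 1204, 2003, 1147, 947 and 637 CPM in MM. The abundant chains H2-Aa and H2-Ab1 had log2 fold changes of -0.03 each. The groups overlapped for all 3, and the median of the list was 0.02 with 8 libraries and 0.39 with 10. Without No MM 1, where Cd74 was highest among the controls, all 13 values were positive with a median of 0.33, and 1 gene remained under the unadjusted threshold.

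**Figure D2:**
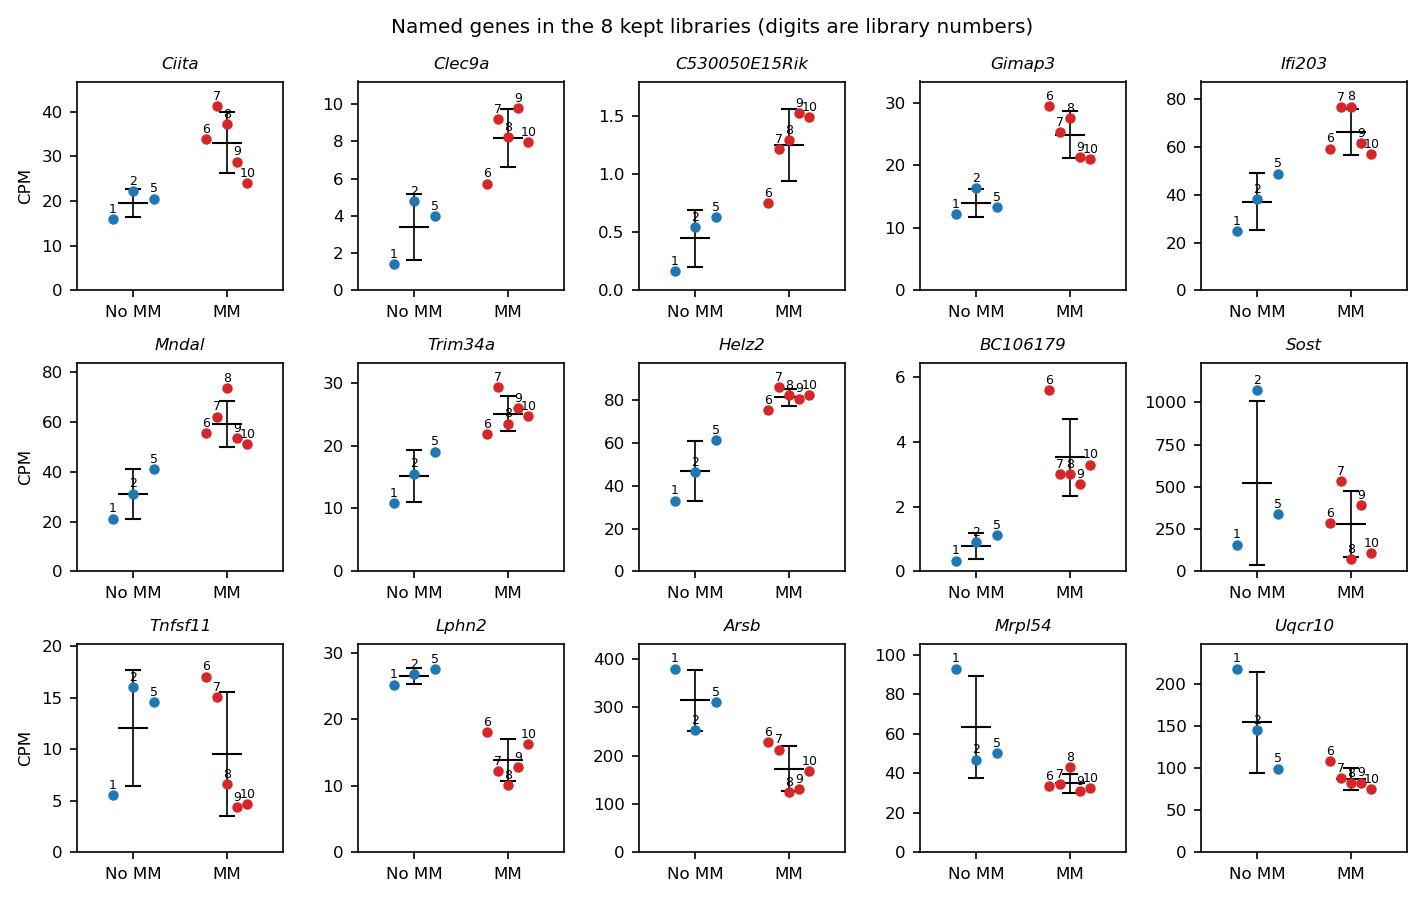
Levels (y axis, CPM) of 15 genes in the 3 No MM (blue) and 5 MM (red) libraries kept, each point 1 library with its number, black bars the mean and SD. Ciita, Clec9a, C530050E15Rik, Gimap3, Ifi203, Mndal, Trim34a, Helz2 and BC106179 do not overlap between groups and are higher in MM, Lphn2, Arsb and Mrpl54 do not overlap and are lower, and Sost, Tnfsf11 and Uqcr10 overlap.

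The 12 named genes higher in MM included Mndal and Ifi203 of the p200 family, which interferons induce. The p200 and Trim families are described together here, and both lists were chosen with earlier results of these data known. The p200 family holds DNA and RNA sensors of the cytosol and nucleus, and the Trim genes of the antiviral cluster encode ubiquitin ligases that restrict viruses. Of 14 p200 genes listed, 7 were found in the deposited counts, and all 7 had positive values, with a median log2 fold change of 0.78. Mndal, Ifi203 and Aim2 (42.9% of the 7) were higher at an unadjusted p under 0.05, against 2.51% of all genes tested. All 11 tested Trim genes were positive with a median of 0.59, and Trim34a and Trim12a (18.2%, against 2.51% of all genes) were under that threshold.

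Promoters of these genes were examined for the core of the interferon-stimulated response element, GAAANNGAAA on either strand. The promoters came from RefSeq (GRCm38.p6) and ran from 250 bases before to 50 after the start. The motif was found in 3 of 4 p200 genes and 7 of 11 Trim genes that had a promoter in the table, in none of 8 Gimap genes, and in 3.88% of the 11575 tested genes with a promoter. It was also found in 11 of 19 type I interferon, 9 of 17 interferon gamma and 1 of 10 MHC class II genes. The motif was thus not particular to the p200 and Trim genes. A match is a description of the sequence and does not show that a factor bound there. For the 2 p200 and 3 Trim genes described next, 1 stretch per gene that carries the motif is shown 5′ to 3′ on the strand of the gene, with the motif or its reverse complement in capitals. Mndal and Trim30a each have a further promoter in the table that holds the motif and is not shown (chr1:173879953-173880062 and chr7:104446106-104446173).
Ifi203 (chr1:173942473-173942577, minus strand): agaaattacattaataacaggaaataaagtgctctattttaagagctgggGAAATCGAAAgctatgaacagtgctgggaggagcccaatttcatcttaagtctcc
Mndal (chr1:173880168-173880273, minus strand): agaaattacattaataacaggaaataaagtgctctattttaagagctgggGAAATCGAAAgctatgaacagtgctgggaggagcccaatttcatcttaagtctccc
Trim34a (chr7:104244417-104244476, plus strand): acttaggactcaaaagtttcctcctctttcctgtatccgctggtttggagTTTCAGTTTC
Trim12a (chr7:104315476-104315535, minus strand): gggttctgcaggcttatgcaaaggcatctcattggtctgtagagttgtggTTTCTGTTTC
Trim30a (chr7:104465174-104465279, minus strand): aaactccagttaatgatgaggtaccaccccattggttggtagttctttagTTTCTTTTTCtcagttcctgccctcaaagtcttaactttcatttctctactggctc

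The motif began 35 bases before the RefSeq start of Ifi203 and 36 before that of Mndal, and both promoters shared an unbroken run of 139 identical bases around it. The deposited models start at other positions on the minus strand, 173942672 for Ifi203 and 173942491 for Mndal. Both stretches shown lie inside these models, and that of Mndal lies far from the start of the model that was counted. Ifi203 was at 24.6, 38.0 and 48.7 CPM in No MM and 59.2, 76.5, 76.7, 61.4 and 57.0 CPM in MM 6 to 10. Mndal was at 21.2, 31.3 and 41.0 CPM in No MM and 55.5, 62.2, 73.6, 53.4 and 51.2 CPM in MM. Neither gene overlapped between groups. Their log2 fold changes were 0.83 ± 0.23 and 0.93 ± 0.23 (SE), with edgeR unadjusted p-values of 0.0053 and 0.0028 and an adjusted p of 0.644 for both. They were 0.94 and 0.86 in the 10-library fit, where No MM 3 and 4 had 25.7 to 34.8 CPM of the 2 genes. The log2 ratios of the means were 1.18 and 1.28 among libraries without Y-linked reads and 0.28 and 0.35 among those with them. In the deposited table the models of Mndal and Ifi203 overlap on the same strand, so their reads may be partly shared and the pair is not 2 separate observations.

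Aim2, the sensor that assembles an inflammasome on cytosolic DNA, was at 11.2, 20.4 and 31.5 CPM in No MM and 23.1, 31.2, 46.0, 40.0 and 40.6 CPM in MM, and overlapped. Pyhin1 was at 28.8, 44.2 and 45.1 CPM in No MM and 39.7, 71.5, 105, 55.3 and 50.4 CPM in MM, with MM 6 inside the control range. The summed level of the family was 125 to 214 CPM in No MM and 227 to 389 CPM in MM, with no overlap. No MM 1 was the lowest library, and the gap between groups was smaller than the range within either. Without No MM 1 the median of the list was 0.53, and with only the libraries lacking Y-linked reads it was 1.08.

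Trim34a was at 10.9, 15.5 and 19.0 CPM in No MM and 21.8, 29.3, 23.5, 25.9 and 24.7 CPM in MM, with no overlap and a log2 fold change of 0.72 at an unadjusted p of 0.0065. Trim12a was at 22.4, 33.6 and 49.0 CPM in No MM and 46.3, 59.4, 47.6, 53.7 and 57.5 CPM in MM, and No MM 5 lay within the MM range. Trim30a was at 35.01, 42.4 and 49.9 CPM in No MM and 46.8, 97.6, 67.3, 51.1 and 54.1 CPM in MM. The Trim34a model spans Trim12a and Trim12c on the other strand, and these genes are close copies of each other, so reads of the cluster are uncertain by gene. Trim25, which lies elsewhere in the genome and senses viral RNA with RIG-I, had a log2 fold change of 0.21. Without No MM 1 all 11 Trim values were still positive, and 1 gene was under the unadjusted threshold.

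Helz2, an interferon-induced helicase and coactivator, was at 33.1, 46.3 and 61.2 CPM in No MM and 75.4, 86.1, 82.4, 80.8 and 82.5 CPM in MM 6 to 10. The MM libraries were close together and all above the controls, with a log2 fold change of 0.80 ± 0.19 (SE) and an edgeR unadjusted p of 0.0025 (adjusted p 0.644). This gene turned direction with the omitted libraries included, since No MM 3 and 4 were at 209 and 241 CPM and the 10-library log2 fold change was -0.61. Rasal3, a Ras GTPase-activating protein of blood cells, did likewise. It was at 23.01 to 29.4 CPM in the kept No MM and 31.7 to 40.3 CPM in MM, but at 51.6 and 64.8 CPM in No MM 3 and 4, and its log2 fold change was 0.55 with 8 libraries and -0.086 with 10.

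The wider interferon lists were less uniform. Of 28 type I interferon genes tested, 22 had positive values with a median of 0.29, and Oas2 and Mx1 (7.14%, against 2.51% of all genes) were higher at an unadjusted p under 0.05. Without No MM 1, 0 of the 28 were, against 0.961% of all genes, but 27 of 28 values were positive with a median of 0.49. Oas2, which makes the second messenger that activates RNase L, was at 5.58, 7.46 and 19.0 CPM in No MM and 24.3, 56.5, 30.3, 17.5 and 15.98 CPM in MM. Rsad2, which encodes viperin, was at 337, 211 and 123 CPM in No MM and 85.8, 194, 138, 202 and 216 CPM in MM, and its log2 fold change of -0.42 had the opposite sign. Bst2 (tetherin) had -0.16 and Parp14 0.46. The type I sum was 1021 to 1601 CPM in No MM and 1034 to 2177 CPM in MM, with MM 7 the highest.

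Of 24 interferon gamma genes, 19 were positive with a median of 0.30, and 4 were higher at an unadjusted p under 0.05, the guanylate-binding proteins Gbp4, Gbp8 and Gbp9 and Cd274, which encodes PD-L1. That is 16.7% of the list, against 2.51% of all genes. Without No MM 1 only 1 of the 24 was under the threshold, but 21 were positive with a median of 0.40. Gbp4 was at 5.84, 13.9 and 19.9 CPM in No MM and 63.2, 95.04, 26.2, 15.6 and 16.3 CPM in MM 6 to 10. Cd274 was at 6.004 to 12.01 CPM in No MM and 11.5, 28.0, 42.1, 12.9 and 14.1 CPM in MM. High values of Gbp4 were found in MM 6 and 7 and those of Cd274 in MM 7 and 8, while MM 9 and 10 lay within or near the control range. MM 6, 7 and 8 were the MM libraries without Y-linked reads, and among libraries of that kind the interferon gamma median was 0.72. The receptor and kinase genes Ifngr1 and Jak1 were among the 3 with the highest level of the list and were not under the unadjusted threshold.

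MHC class I genes, a further interferon-responsive group, had 10 positive and 11 negative values with a median of -0.03, and Nlrc5, the class I transactivator, was higher at an unadjusted p of 0.044 (1 of 21, 4.76%, against 2.51% of all genes), but not without No MM 1. Nlrc5 was at 26.3, 38.5 and 59.8 CPM in No MM and 83.9, 126, 82.4, 46.7 and 47.8 CPM in MM. B2m, the light chain of class I molecules, was at 3213, 1829 and 1442 CPM in No MM and 1767, 2826, 2087, 1359 and 1278 CPM in MM. H2-D1 and H2-K1 had log2 fold changes of -0.18 and 0.10. With 10 libraries the class I median was -0.65. Without No MM 1 it was 0.22, and 18 of 21 values were positive.

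The Gimap genes, GTPases that sustain lymphocytes, were positive in 8 of 8 with a median of 0.27, and Gimap3 and Gimap8 were under the unadjusted threshold, against 2.51% of all genes. Gimap3 was at 12.2, 16.4 and 13.3 CPM in No MM and 29.5, 25.3, 27.6, 21.3 and 21.0 CPM in MM 6 to 10. Every MM library exceeded every control, with a log2 fold change of 0.84 ± 0.19 (SE) and an edgeR unadjusted p of 0.0015 (adjusted p 0.644). The log2 ratio was 0.94 among libraries without Y-linked reads and 0.67 among those with them. Gimap8 was at 8.44, 16.2 and 24.0 CPM in No MM and 36.5, 29.1, 24.7, 29.9 and 31.8 CPM in MM, with a gap of 0.698 CPM between groups. The more abundant reads of Gimap6 and Gimap4 had log2 fold changes of 0.04 and 0.19. Of 26 T and NK cell genes, 20 were positive with a median of 0.26, and Klrd1 and Ncr1, receptors of natural killer cells, were under the unadjusted threshold (7.69%, against 2.51% of all genes), and 1 of the 26 was without No MM 1.

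Of the 12 genes with the smallest p in the higher direction, BC106179 had the largest log2 fold change. It is a protein-coding gene of chromosome 16. It was at 0.336, 0.910 and 1.13 CPM in No MM and 5.59, 3.006, 3.003, 2.69 and 3.29 CPM in MM 6 to 10, with a log2 fold change of 2.13 ± 0.46 (SE). Its edgeR unadjusted p was 0.0012 (adjusted p 0.644), and it passed the adjusted threshold in DESeq2 (adjusted p 0.0045). No MM 4 had 0.181 CPM and No MM 3 had 1.81 CPM, which was below all MM libraries. The gene overlaps St6gal1 on the other strand. Klra13-ps, a pseudogene of an NK receptor family, was at 0.168 to 1.15 CPM in No MM and 1.79 to 3.82 CPM in MM, and Ccdc171 at 1.26 to 1.99 and 2.72 to 3.73 CPM.

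The remaining 3 were widely expressed genes. Eif4a2, an RNA helicase of translation initiation, was at 117, 218 and 268 CPM in No MM and 436, 372, 375, 352 and 375 CPM in MM. Safb2, a nuclear RNA-binding protein, was at 57.5 to 94.0 and 97.8 to 130 CPM, and Gga3, an adaptor of vesicle traffic, at 27.7 to 43.5 and 46.6 to 58.1 CPM. In all 3 genes No MM 1 was the lowest library of the 8. Of the 12 named genes higher in MM, all 12 kept an unadjusted p under 0.05 without No MM 1 (0.0025 to 0.0268) and 7 of 12 did with all 10 libraries, where 10 of 12 kept their direction and the highest p was 0.784. The 12 were chosen by their p in the 8-library fit, and these refits share its libraries, so they are no independent check.

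Among genes lower in MM, the lists with the most members were those of ribosomal and respiratory chain proteins. Of 75 cytosolic ribosomal protein genes, 74 had negative values with a median log2 fold change of -0.58, and 38 (50.7%) were lower at an unadjusted p under 0.05 against 3.37% of all genes. Of 53 genes of oxidative phosphorylation, the mitochondrial respiratory chain and ATP synthase, all had negative values with a median of -0.57, and 34 (64.2%) were under that threshold. The proteasome, which degrades ubiquitin-tagged proteins, had 31 of 31 negative values with a median of -0.38 and 5 (16.1%) under the threshold. The groups did not overlap in 8 of 75 ribosomal genes, 1 of 53 respiratory genes and 1 of 31 proteasome genes, against 1.53% of all genes, and the last 2 counts were near that share.

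The summed level of the ribosomal protein genes was 108000, 65960 and 50740 CPM in No MM 1, 2 and 5 and 42840, 54010, 55710, 48770 and 47150 CPM in MM 6 to 10. No MM 1 was the highest library, and No MM 5 lay within the MM range. The respiratory sum was 16730, 10520 and 7790 CPM in No MM and 8657, 7832, 8030, 7593 and 7185 CPM in MM, in the same order among controls. Rplp0, an acidic protein of the ribosomal stalk, was at 4897, 1668 and 1658 CPM in No MM and 1326, 1270, 1420, 1454 and 1150 CPM in MM. Rpl36 was at 889, 468 and 331 CPM in No MM and 253, 317, 328, 235 and 251 CPM in MM. Atp5b, the catalytic subunit of ATP synthase, was at 1974, 1028 and 838 CPM in No MM and 803, 775, 856, 763 and 773 CPM in MM. Among libraries without Y-linked reads, which include No MM 1, the log2 ratios of Rplp0 and Atp5b were -1.29 and -0.89. Among those with them, where No MM 5 was the only control, they were -0.35 and -0.13.

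**Figure D3:**
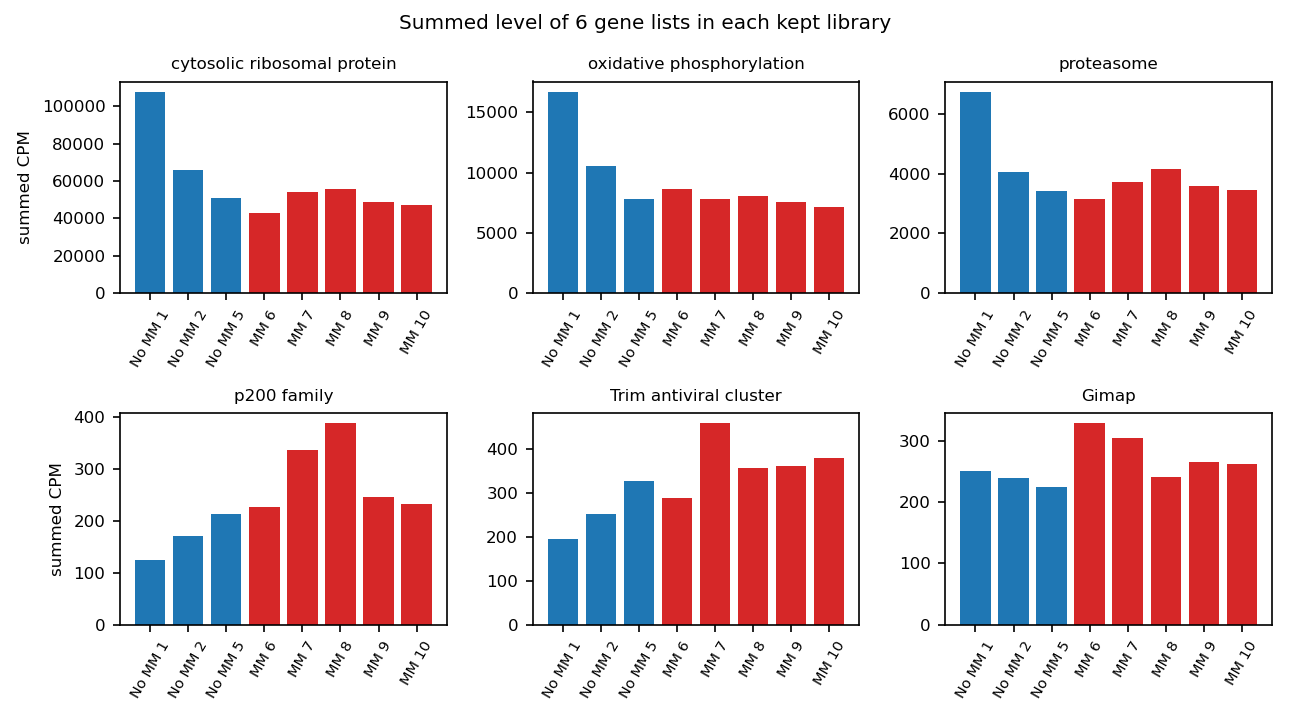
Summed level (y axis, CPM) of 6 gene lists in each kept library (x axis), No MM in blue and MM in red. The ribosomal, respiratory and proteasome sums are highest in No MM 1, and No MM 5 lies near the MM libraries. The p200 sum is 125 to 214 CPM in No MM and 227 to 389 CPM in MM.

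These counts rested on No MM 1. Of the 560 genes lower in MM, No MM 1 was the highest control in 92.1%, against 41.8% of all genes tested, and of the 417 genes higher in MM it was the lowest control in 84.2%, against 39.3%. The median gene length was 1435 bases for the lower set, 3208 for the higher set and 2906 for all genes tested. Without No MM 1, 163 genes (0.961%) were higher and 88 (0.519%) lower at an unadjusted p under 0.05, with 1 ribosomal and 1 respiratory gene among the latter and no proteasome gene. The medians were then -0.23, -0.22 and -0.04, and 74 of 75 ribosomal and 53 of 53 respiratory values were still negative. Without No MM 5, by contrast, 1597 genes were higher and 1633 lower, and none passed the adjusted threshold (smallest adjusted p 0.191). What sets No MM 1 apart was not tested.

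Of the single genes lower in MM, Lphn2 had the smallest p. It encodes latrophilin 2, an adhesion receptor, and was at 25.2, 26.8 and 27.5 CPM in No MM and 18.1, 12.2, 10.1, 12.8 and 16.3 CPM in MM 6 to 10. The 3 controls were nearly equal and all above MM, with a log2 fold change of -0.93 ± 0.20 (SE) and an edgeR unadjusted p of 0.0013 (adjusted p 0.644). The log2 ratio was -0.95 without and -0.92 with Y-linked reads. Its 10-library value of -2.78 included 160 and 214 CPM in No MM 3 and 4. Atf5, a stress-induced transcription factor, was likewise at 240 and 200 CPM in that pair, and at 58.5 to 90.4 CPM in the kept No MM and 29.4 to 57.5 CPM in MM. For both genes the kept libraries showed the same direction at a smaller size.

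Arsb, the lysosomal arylsulfatase B that degrades dermatan and chondroitin sulfate, was at 379, 253 and 311 CPM in No MM and 228, 212, 125, 131 and 168 CPM in MM. The groups did not overlap, with a log2 fold change of -0.87 ± 0.25 (SE) and an edgeR unadjusted p of 0.0065 (adjusted p 0.644). In No MM 3 and 4 it was at 72.4 and 65.3 CPM, below every MM library, and its 10-library value was -0.32. Nxn, the redox regulator nucleoredoxin, was at 39.9 to 54.6 CPM in No MM and 27.4 to 35.9 CPM in MM. It too was lower in the omitted pair, at 16.9 and 15.3 CPM. Gpr37l1, an orphan receptor, was at 1.12 to 4.27 CPM in No MM and 0.149 to 0.779 CPM in MM, with 0.420 and 0.218 CPM in No MM 3 and 4.

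The other 7 had deposited gene lengths of 78 to 948 bases. Mrpl54, a protein of the mitochondrial ribosome, was at 93.0, 47.0 and 50.3 CPM in No MM and 33.5, 34.5, 43.1, 31.04 and 32.7 CPM in MM, without overlap. Uqcr10, a subunit of respiratory complex III, was at 219, 146 and 99.8 CPM in No MM and 109, 88.5, 82.8, 82.9 and 75.1 CPM in MM, and MM 6 exceeded No MM 5. Myeov2 was at 76.9 to 115 CPM in No MM and 57.2 to 68.7 CPM in MM, and Tmem242 at 55.5 to 87.3 and 38.3 to 53.9 CPM. The pseudogenes Gm10736 and Gm3699 are 78 bases long, and Gm10076 has 384 bases. Their log2 fold changes were -1.31, -1.29 and -1.25. All 12 named genes lower in MM had an unadjusted p under 0.05 without No MM 1 (0.0029 to 0.0372). It was 9 of 12 among libraries with no Y-linked reads and 9 of 12 with all 10 libraries, where the highest p was 0.673.

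Osteocyte cytokines were measured with a wide spread. Sost was at 158, 1072 and 339 CPM in No MM 1, 2 and 5 and 285, 536, 71.7, 392 and 108 CPM in MM 6 to 10. The groups overlapped, and the means were 523 ± 484 (SD, n = 3) and 279 ± 194 CPM (SD, n = 5), with a log2 fold change of -0.91 ± 0.73 (SE) and an edgeR adjusted p of 0.68. Without No MM 2 the sign turned (0.16). Tnfsf11 was at 5.58, 16.01 and 14.6 CPM in No MM and 17.0, 15.1, 6.602, 4.39 and 4.70 CPM in MM, with a log2 fold change of -0.34 ± 0.54 (SE) and an edgeR adjusted p of 0.82. MM 6 and 7 were as high as the highest controls, and MM 8, 9 and 10 were near the lowest. Among libraries without Y-linked reads its log2 ratio was 0.26, and among those with them, where No MM 5 was the only control, -1.68.

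None of 14 osteocyte cytokine genes was under the unadjusted threshold, and their median was -0.19 with 8 libraries and 0.15 with 10. Dmp1, a mineralisation protein of osteocytes, was at 415 to 843 CPM in No MM and 172 to 951 CPM in MM, and Mepe at 120 to 601 and 52.0 to 382 CPM. Il6 was at 0.084 to 0.445 CPM in No MM and 0.362 to 1.51 CPM in MM, near the level of a few reads. Fgf23, the phosphate-regulating hormone, was at 1.78 to 3.74 and 1.08 to 5.31 CPM. Of the 17 osteocyte markers, 16 had negative values with a median of -0.21, and the actin-capping gene Capg was lower at an unadjusted p of 0.0254. This 1 of 17 (5.88%) was near the 3.37% of all genes, and none of the 17 was under the threshold without No MM 1.

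Among 20 antagonists of Wnt and BMP signalling, 13 were negative with a median of -0.23, and Wif1 and Sfrp4 were lower at an unadjusted p under 0.05, against 3.37% of all genes. Wif1, which binds Wnt ligands outside the cell, was at 189, 84.2 and 217 CPM in No MM and 118, 56.7, 67.6, 54.8 and 93.7 CPM in MM. MM 6 and 10 lay above No MM 2, so the groups overlapped. Sfrp4, a decoy receptor for Wnts, was at 84.1 to 125 and 54.9 to 88.7 CPM. Neither gene was under the unadjusted threshold without No MM 1. Dkk1, the Wnt antagonist best known in myeloma bone disease, was at 30.9, 82.3 and 57.4 CPM in No MM and 55.6, 56.0, 14.9, 43.6 and 25.4 CPM in MM.

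Osteoblast and osteoclast genes had mostly negative values, and none passed a test. Of 20 osteoblast genes, 16 were negative with a median of -0.43, and none was under the unadjusted threshold. Col1a1, the main collagen of bone, was at 18070, 10190 and 16111 CPM in No MM and 20062, 8581, 6048, 5284 and 10454 CPM in MM, where MM 6 was the highest of all. Of 14 osteoclast genes, 13 were negative with a median of -0.50. The acid phosphatase Acp5 was at 6990, 2093 and 3278 CPM in No MM and 4004, 2051, 1125, 1010 and 2050 CPM in MM, and the protease Ctsk at 4006, 1534 and 3434 CPM and 2897, 1430, 647, 924 and 1970 CPM. With 10 libraries the osteoblast and osteoclast medians were 0.16 and 0.08, so their sign depended on the omitted pair.

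Of 34 collagen and matrix genes, 27 were negative with a median of -0.31, and Col12a1 and Mmp2 were lower at an unadjusted p under 0.05. Their share of 5.88% was near the 3.37% of all genes, and neither was under the threshold without No MM 1. Of 19 genes of metallothioneins and zinc transport, 3 (15.8%) were lower at that threshold, against 3.37% of all genes. Mt1, a metallothionein that buffers zinc, was at 184, 65.5 and 120 CPM in No MM and 82.6, 59.1, 48.0, 69.9 and 65.1 CPM in MM, and Mt2 at 115, 34.99 and 63.0 CPM and 47.1, 34.3, 22.96, 36.1 and 32.8 CPM. No MM 2 lay within the MM range for both, and none of the 19 was under the threshold without No MM 1. Of 22 genes of the myeloma niche, 13 were positive with a median of 0.05, and 1 (Ccl3, 4.55%) was higher at an unadjusted p under 0.05, against 2.51% of all genes, and none of the 22 without No MM 1. Ccl3, a chemokine that stimulates osteoclasts, was at 2.27, 2.30 and 1.81 CPM in No MM and 2.50, 6.62, 30.4, 4.45 and 2.87 CPM in MM, with a gap of 0.199 CPM between groups and MM 8 far above the rest.

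Markers of other cells did not give a uniform picture. No neutrophil, monocyte, erythroid, megakaryocyte, endothelial, adipocyte, muscle or cartilage gene was under the unadjusted threshold in either direction. Their list medians ran from -0.94 for muscle to 0.15 for megakaryocyte genes. Of 18 erythroid genes all 18 were negative with a median of -0.50, and the haemoglobin gene Hbb-bs was at 33909, 17717 and 6305 CPM in No MM and 4446, 7859, 5136, 15714 and 12229 CPM in MM. Without No MM 1, 7 erythroid values were positive and 11 negative with a median of -0.04, and with 10 libraries the median was 0.14. The log2 ratio of Hbb-bs was -2.15 among libraries without Y-linked reads and 1.15 among those with them, where No MM 5 was the only control. Muscle actin Acta1 was at 1590, 1452 and 140 CPM in No MM and 1246, 231, 191, 365 and 90.7 CPM in MM, high in 2 controls and in MM 6. Of 24 B cell genes, 11 were positive, and Cd22, an inhibitory receptor of B cells, was higher at an unadjusted p of 0.013 (1 of 24, 4.17%, against 2.51% of all genes). Cell cycle genes were negative in 34 of 40 with a median of -0.34, which was 0.04 without No MM 1. Mki67, the most abundant of them, had a log2 ratio of -0.40 without and 0.83 with Y-linked reads.

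**Figure D4:**
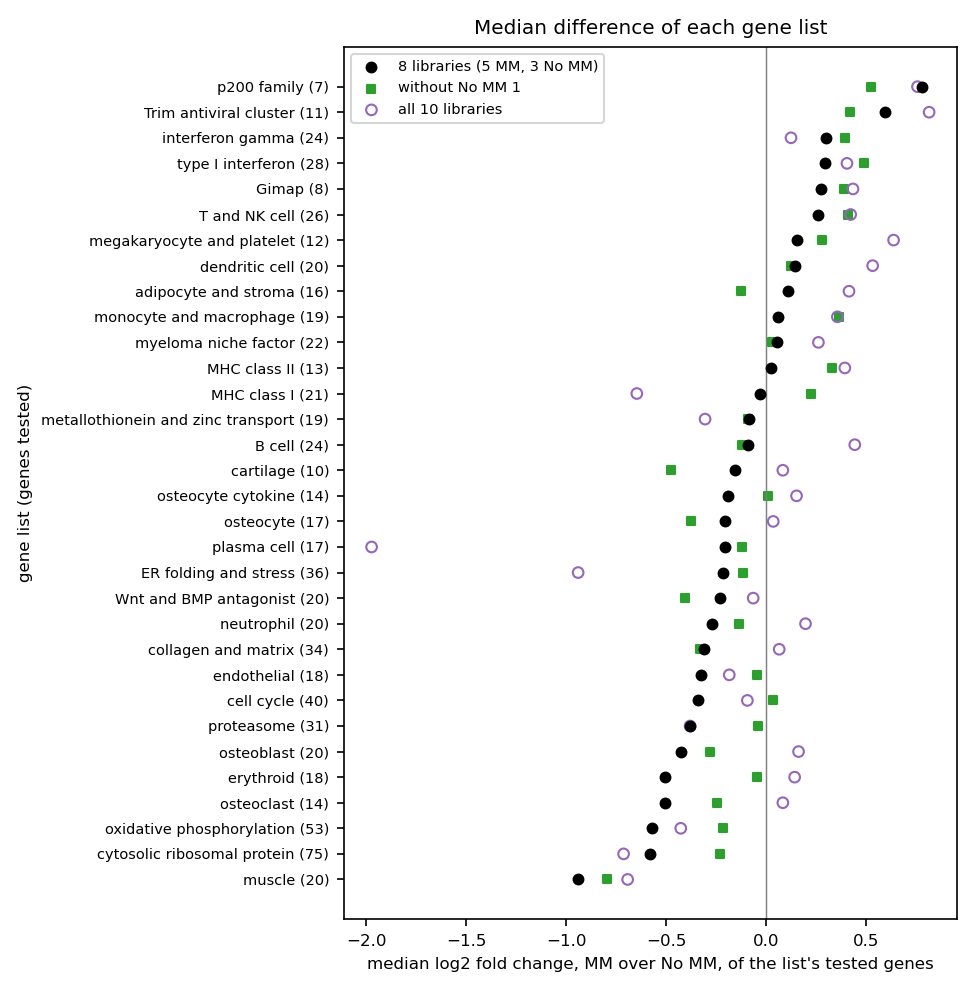
Median log2 fold change of MM over No MM (x axis) of the tested genes of 32 lists (y axis, number tested in parentheses) with the 8 kept libraries (black), without No MM 1 (green squares) and with all 10 libraries (open circles). The plasma cell and endoplasmic reticulum lists lie at -1.97 and -0.94 with 10 libraries and at -0.21 and -0.22 with 8.

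Plasma cell genes and the secretory machinery are given as a description, because the libraries were chosen on immunoglobulin reads. The median of 17 plasma cell genes was -1.97 with 10 libraries and -0.21 with 8, and that of 36 genes of endoplasmic reticulum folding and stress was -0.94 and -0.22. Xbp1, the transcription factor of secretory cells, was at 393, 350 and 212 CPM in No MM and 225, 258, 256, 211 and 220 CPM in MM. Sdc1 (CD138), the usual plasma cell marker, was at 165, 121 and 109 CPM in No MM and 138, 81.2, 37.5, 58.3 and 111 CPM in MM. Mzb1, a chaperone of immunoglobulin assembly, was at 96.6, 75.9 and 18.6 CPM in No MM and 24.4, 31.8, 22.5, 27.8 and 20.3 CPM in MM. No MM 1 and 2, which had the larger immunoglobulin shares among the kept libraries, had the higher Mzb1 levels.

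The variable genes that made up the immunoglobulin reads differed from library to library. In No MM 1, Igkv12-89 took 52.7% of 177995 kappa variable reads and Ighv10-1 took 63.7% of heavy variable reads. In No MM 2, Igkv9-123 took 73.6% and Ighv4-1 took 80.2%. No MM 5 was mixed, with no kappa gene above 11.8%. Of the MM libraries, 9 and 10 were led by the same pair, Igkv4-91 with 28.2% and 47.7% and Ighv1-15 with 33.6% and 44.1%. MM 6, 7 and 8 were led by Igkv4-55 (15.8%), Igkv15-103 (13.9%) and Igkv8-27 (29.0%). No single kappa variable gene led all 5 MM libraries.

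Igkv4-55, Iglv1 and Ighv6-3 were named after their values were seen, and the libraries were kept on reads of such genes. Igkv4-55 did not overlap between groups, at 42.4, 26.9 and 19.4 CPM in No MM and 257, 147, 99.1, 163 and 128 CPM in MM 6 to 10. Iglv1 had the opposite order, at 160, 325 and 618 CPM in No MM and 83.1, 110, 34.2, 60.4 and 49.1 CPM in MM. Ighv6-3 was at 26.1, 130 and 56.1 CPM and 8.21, 21.8, 14.2, 10.5 and 17.3 CPM. Variable genes of 1 family are near copies of each other, so reads may be divided among them.

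**Figure D5:**
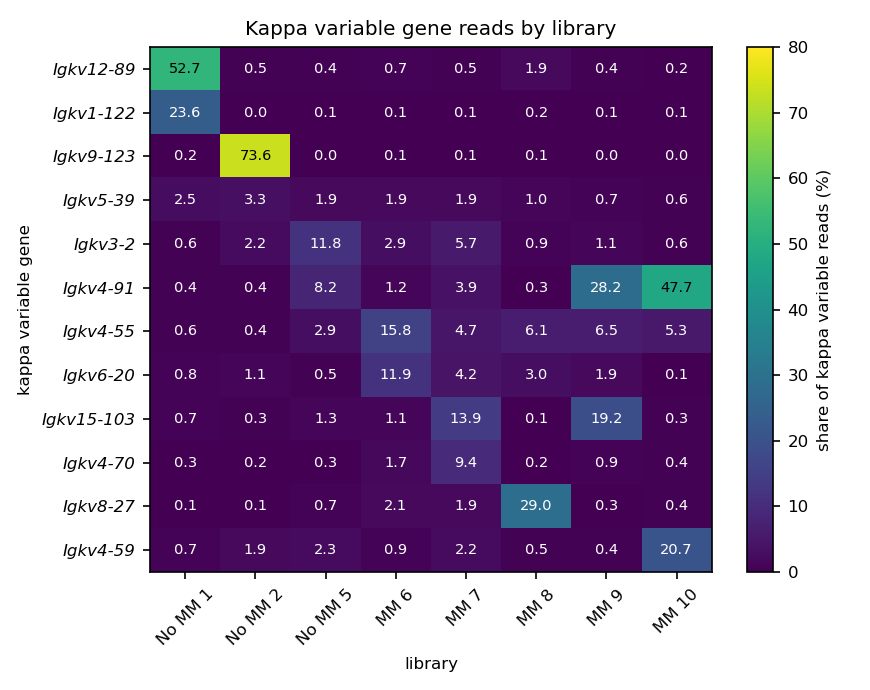
Share of kappa variable gene reads (colour and numbers, percent) taken by each of 12 genes (rows) in each kept library (columns). The genes are those ranked first or second in any library. Single genes lead No MM 1 (52.7%) and No MM 2 (73.6%), and Igkv4-91 leads MM 9 and MM 10.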

How the data were processed

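Total RNA of osteocytes from 10 mice was sequenced as stranded paired-end libraries. The authors deposited raw read counts per gene, counts divided by 1 size factor per library (a signal column) and FPKM values in 1 table. Only the counts were used. The fold-change and p-value columns in that table hold the authors' own comparison and were not used. The submitters' processing notes name FastQC 0.11.5 and STAR; the counting program and genome build were not given in the sources used here. GENCODE M21, an annotation of GRCm38, lists 22284 of the 22548 gene IDs, 68.4% of them at identical positions. Gene positions are those of the deposited table. All 10 sample columns were assigned, and 0 were left unassigned.

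Libraries under 5% immunoglobulin reads were compared (5 MM, 3 No MM) with edgeR 4.0.16 in R 4.3.3: low-count filter (filterByExpr), TMM scaling, quasi-likelihood test, two-sided, Benjamini-Hochberg adjustment over all 16600 genes. CPM values use TMM-scaled library sizes, and edgeR fold changes come from the quasi-likelihood fit. A prior count of 2 entered log2 CPM values, not these fold changes. P-values measure the spread between mice. DESeq2 1.42.0 was an alternative, and the code was tested on simulated data. The members, gene lists and tests were chosen with earlier results of these data known. Named genes were Ciita, Clec9a, C530050E15Rik, Tnfsf11 and Sost, the 12 non-immunoglobulin genes with the smallest p in each direction at a mean of at least 1 CPM, and in each list the genes passing the adjusted threshold and the 3 with the highest mean CPM. For the promoters, 32851 RefSeq sequences were searched.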

Additional observations from a re-analysis of the deposited data

Results flagged for a closer look

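In 61 sets of 5 MM libraries, 1 library was set against the others by its gap to the nearest, divided by the range of all 5 (critical value 0.71). It exceeded that value in 8, and chance alone gives about 1 in 20. BC106179 had a gap of 0.794 of the range, with MM 6 at 5.59 CPM and the others at 2.69 to 3.29. Rasal3 had 0.807, with MM 6 at 31.7 CPM against 38.7 to 40.3 in the others. Eif4a2 had 0.72, again by MM 6, at 436 CPM against 352 to 375. The muscle list had 0.741, with MM 6 at 9996 CPM against 1179 to 3467.

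In MM 8, Gpr37l1 (0.74) was at 0.149 CPM against 0.615 to 0.779, and Mrpl54 (0.714) at 43.1 CPM against 31.04 to 34.5. The type I interferon sum (0.786) and the interferon gamma sum (0.73) were highest in MM 7, at 2177 and 2660 CPM against 1034 to 1279 and 1296 to 1665. The 2 libraries left out of the comparison, No MM 3 and No MM 4, had 26.84% and 29.27% of reads on immunoglobulin genes, against 0.647% to 3.98% in the kept controls.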

How the results depend on the processing

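No gene passed the adjusted threshold in either direction in any edgeR alternative run, whereas DESeq2 called 2 higher and 2 lower (3 of the 4 immunoglobulin genes, whose reads chose the libraries) and 650 higher at an unadjusted p under 0.05. At an unadjusted p under 0.05, leaving out each library in turn gave 163 to 1597 genes higher and 88 to 1633 lower, the lowest without No MM 1 and the highest without No MM 5. With all 10 libraries 1664 were lower. With a 2% limit on immunoglobulin reads, which leaves No MM 5 as the only control, assumed to vary like the MM libraries, 96 were higher and 174 lower. Among libraries with no Y-linked reads, an alternative chosen after seeing the data, 705 were higher. Requiring at least a 2-fold change at an unadjusted p under 0.05 gave 151 higher and 81 lower. The sign turned for Helz2 (-0.61) and Rasal3 (-0.086) with all 10 libraries, for Sost without No MM 2 (0.16, against -1.35 without No MM 1) and for Tnfsf11 in libraries with no Y-linked reads (0.25). Ciita ran from 0.62 to 1.08 and Clec9a from 0.89 to 1.59 in log2 fold change over 19 alternatives. Causes were not tested. Depth limits genes near 0.0745 to 0.126 CPM, the level of 3 reads. No paired analysis was possible because the labels give no pairing and no replicate number that MM and No MM libraries share, although the study describes its comparison as paired.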
